A study of Caenorhabditis elegans with 6 samples.

Results

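The potassium channel genes of *C. elegans* were chosen by name: every gene called *twk*, *kqt*, *kvs*, *irk*, *shk*, *shl*, *shw*, *kcnl* or *slo* with a number, together with *egl-2*, *egl-23*, *egl-36*, *exp-2*, *unc-103*, *unc-58*, *sup-9*, *unc-93* and *sup-10*. The rule found 71 of the 19793 genes measured, and no expression value was used in it. By structural class they comprised 45 K2P genes, 10 Kv genes, 3 KCNQ genes, 2 EAG/ERG genes, 4 SK genes, 2 SLO genes, 3 inward rectifier genes and 2 genes for accessory proteins.

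Poly(A) RNA was sequenced from neural cells isolated from L1 larvae, with 3 biological replicates per genotype. The *adr-2 (-)* animals (strain BB78) carried the *ok735* deletion of the only active editing deaminase of the worm, RFP and GFP reporters driven in neurons by the *rab-3* promoter, and a genomic *unc-119* rescue. The *adr-2 (-)*;ADR-1 dsRBD1 animals (strain HAH57) carried the same deletion, reporters and rescue, and in addition a 3X FLAG tag on ADR-1 with lysine substitutions in the first double-stranded RNA binding domain, which abolish RNA binding by this deaminase-like protein. The comparison therefore asks which transcript levels differ between neural cells with ADR-1 that can and cannot bind RNA, in the absence of ADR-2, with the tag itself present in the second strain and not in the first.

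Potassium channels let potassium leave the cell, which holds or returns the membrane to its resting potential and ends electrical activity in neurons and muscle. K2P subunits, the largest class in worms, carry a pair of pore loops each and form leak channels that are open at rest. Kv, KCNQ and EAG/ERG channels open on depolarization, SK and SLO channels respond to calcium or other intracellular ions, and inward rectifiers pass current most readily near or below the resting potential.

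The libraries held between 5686686 and 18382009 reads on genes, of which 5520 to 31038 fell on the 71 genes. One library stood apart. *adr-2 (-)* replicate 3 was the shallowest, 52.6% of its reads came from the ribosomal RNA gene *rrn-3.1* against 12.6% to 21.3% in the others, and reads were found for 10532 genes against 11971 to 15887. Values are read counts divided by a size factor for each library, so that 1 read was worth 3.25 in this library and 0.602 to 0.930 elsewhere, and the smallest count taken as detectable, 3 reads, corresponded to 9.76 there and to 1.81 to 2.79 elsewhere. These floors cover counting error only. Fold changes that it moved are therefore also given without it. Of 16 neuron markers all had reads in every library, with sums of 39230 to 46039 in *adr-2 (-)* cells and 41178 to 51918 in dsRBD1 mutant cells, but other tissues were also represented. The 14 muscle markers summed to 254120 to 349400 and 319880 to 351210, 13 of them with reads in every library (*hlh-1* was at 0 in *adr-2 (-)* replicate 3), and the 12 intestine markers to 55679 to 80222 and 61273 to 86813 (*end-1* at 0 in the same library). All 17 germline and embryo markers had lower fitted values in the mutant cells, with sums of 2213 to 10861 against 1098 to 1485, and the 7 glia markers found summed to 1753 to 2002 against 2472 to 3419. The part that these tissues play in the values below was not tested, and in bulk samples fewer cells of a type and less RNA per cell cannot be told apart.

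Potassium channel transcripts were mostly present at low to moderate levels, and 48 of the 71 genes had reads in all 6 libraries. On a scale that allows genes to be compared, the normalized value per kb of exon, the muscle K2P channel gene *twk-18* stood first. Its level was 923 per kb as a mean of 6 libraries. This was above 91.6% of the 13700 genes with a length and a mean value of at least 10. No library of any other potassium channel gene reached the lowest of the 6 values of *twk-18*. The genes *twk-49* at 353 per kb, *twk-7* at 335, *twk-8* at 263, the ERG gene *unc-103* at 258 and the Shaker gene *shk-1* at 253 followed. The order was otherwise gradual: of 70 pairs of neighbours in it, 69 had library ranges that overlapped, the exception being *twk-18* and *twk-49*. The first 10 genes made up 41.8% of the summed level per kb, *twk-18* alone between 10.2% and 13.5% in each library. Only 23 of the 71 genes lay above the median of those 13700 genes, at 114 per kb. The lowest was *twk-21* at 4.13 per kb, the 1 gene that did not reach the mean value of 10 required for testing.

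**Figure D1:**
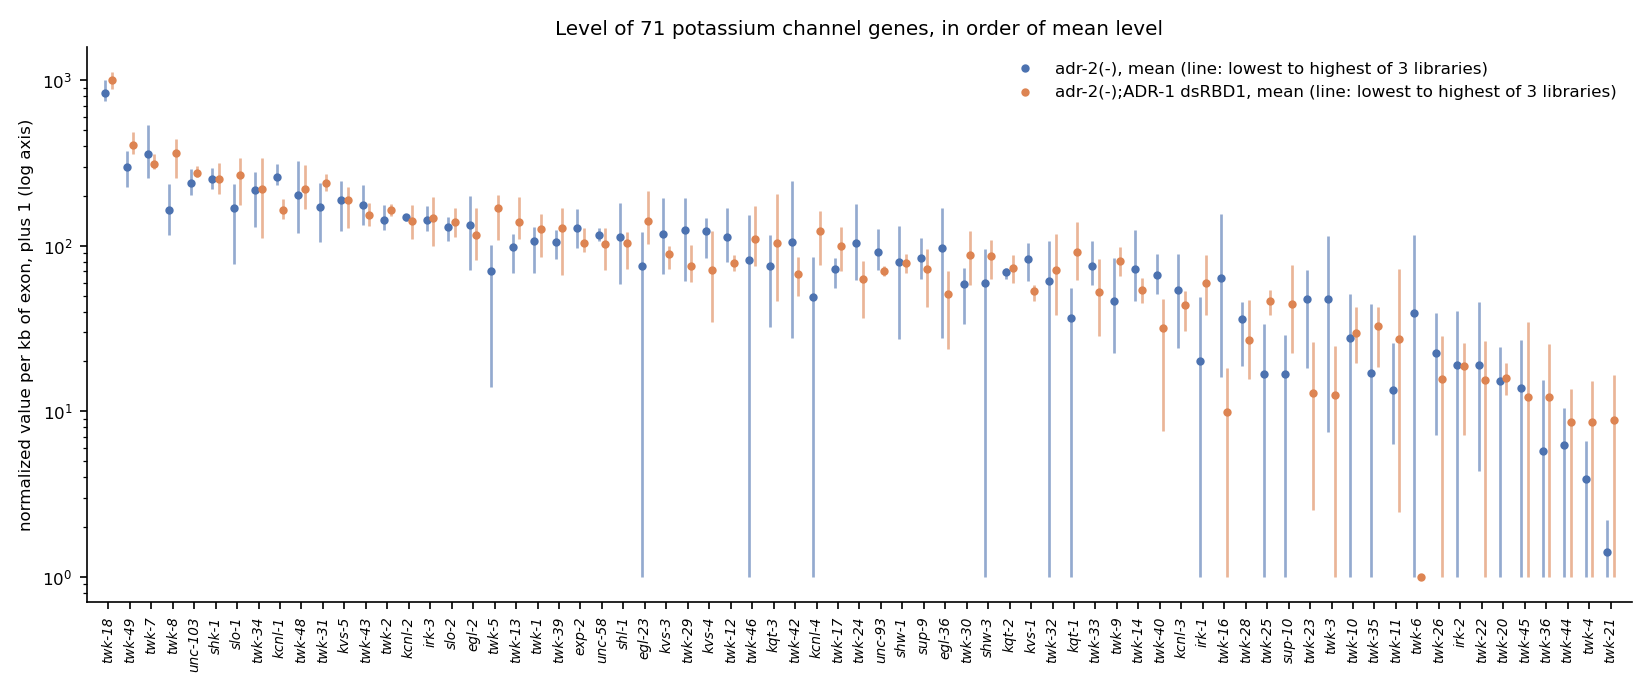
Normalized value per kb of exon plus 1 (log axis) for the 71 potassium channel genes, in order of their mean over 6 libraries. Points are means of 3 libraries and lines run from the lowest to the highest library. *twk-18* stands above all others at 923 per kb, and lines that reach the bottom of the axis mark genes with a library at 0.

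No potassium channel gene was called changed between the genotypes. With limma, 0 of the 70 genes tested had an adjusted p-value under 0.05 with an absolute log2 fold change above 0.5, and 0% of all 13705 genes tested did. The smallest adjusted p-value was 0.703 among the potassium channel genes and 0.129 among all genes. Only *twk-8* was higher in the mutant cells at an unadjusted p-value under 0.05, a threshold passed in that direction by 3.46% of all genes, and only *kcnl-1* was lower, against 2.9% of all genes. Together these 2 genes were 2.86% of those tested, below the 6.36% of all genes in either direction. The quasi-likelihood test of edgeR called 0 of 70 (0% of all genes) and placed the same 2 genes under an unadjusted 0.05, where it placed 2.67% of all genes higher, 3.88% lower and 6.55% in all. DESeq2 called 0 of 71 genes where it called 2.2% of all genes, counted over the 14227 with an adjusted p-value. It placed 3 under an unadjusted 0.05, *twk-8* higher and *kcnl-1* and *twk-6* lower. Of the same 14227 genes, 3.52% were higher, 7.27% lower and 10.8% in all. With *adr-2 (-)* replicate 3 left out, limma placed *twk-8* and *twk-2* (higher, 2.9% of all genes) and *kcnl-1* (lower, 3.13%) there, 3 genes against 6.03% of all genes in either direction, and called 0 (0%). In edgeR without that library only *twk-8* remained (2.41% of all genes higher, 2.93% lower and 5.33% in all), with 0 called (0%).

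No common shift of the genes was seen either. Of the 70 genes, 37 had a log2 fold change above 0, which is 52.9% against 54.5% of all genes, and the median log2 fold change was 0.04 against 0.09 for all genes. Without *adr-2 (-)* replicate 3 the medians were -0.05 and -0.06, and 45.7% against 45% of all genes were above 0. The libraries of the 2 genotypes did not overlap for 7 genes, 10% of those tested against 13.7% of all genes. Of these, 4 were higher in every mutant library (6.8% of all genes were) and 3 were lower (6.92% of all genes were). Without *adr-2 (-)* replicate 3, there were 8 higher against 9.83% of all genes and 4 lower against 12.9%, in all 12 genes or 17.1% against 22.7%. The ranking of the 71 genes by value was also much the same in the 2 genotypes: Spearman's rho between single libraries was 0.863 to 0.914 for 4 pairs within a genotype and 0.870 to 0.930 for 6 pairs across genotypes, when *adr-2 (-)* replicate 3 was set aside. With it, the 5 pairs gave 0.623 to 0.702. These correlations are across genes, which are not independent replicates.

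The clearest difference was that of *twk-8* (WBGene00006663, chromosome IV from 9082355 to 9087579 in WBcel235), a K2P gene. Its normalized values were 361, 600.3 and 296 in *adr-2 (-)* cells and 656, 994 and 1126.5 in dsRBD1 mutant cells. Every mutant library lay above every *adr-2 (-)* library, although *adr-2 (-)* replicate 2 and mutant replicate 1 were close. The means were 419 ± 160 and 926 ± 242 (SD, n = 3), a log2 fold change of 1.17 with a standard error of 0.35 and a 95% interval from 0.41 to 1.93. The unadjusted limma p-value was 0.00585 and the adjusted one 0.703, while DESeq2 gave an adjusted p-value of 0.148, so the difference did not pass the correction for all genes tested. Leaving out any single library kept the log2 fold change between 0.95 and 1.46, and *twk-8* was the only potassium channel gene with an unadjusted p-value under 0.05 in all 18 fits that were made.

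A difference in the other direction was seen for *kcnl-1* (WBGene00007176, chromosome V from 19565382 to 19606124), which encodes an SK channel, a small-conductance channel opened by intracellular calcium. Its values were 809, 805 and 1079.9 in *adr-2 (-)* cells and 664, 503 and 541 in dsRBD1 mutant cells. All 3 mutant libraries were below all 3 *adr-2 (-)* libraries, and the highest value was that of *adr-2 (-)* replicate 3. The means were 898 ± 157 and 569 ± 84.2 (SD, n = 3), a log2 fold change of -0.65 with a standard error of 0.27 and a 95% interval from -1.25 to -0.06 (limma, unadjusted p = 0.0348, adjusted p = 0.741). The log2 fold change was between -0.77 and -0.51 with each library left out, but without mutant replicate 2, without mutant replicate 3 and in several other fits its unadjusted p-value was no longer under 0.05.

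**Figure D2:**
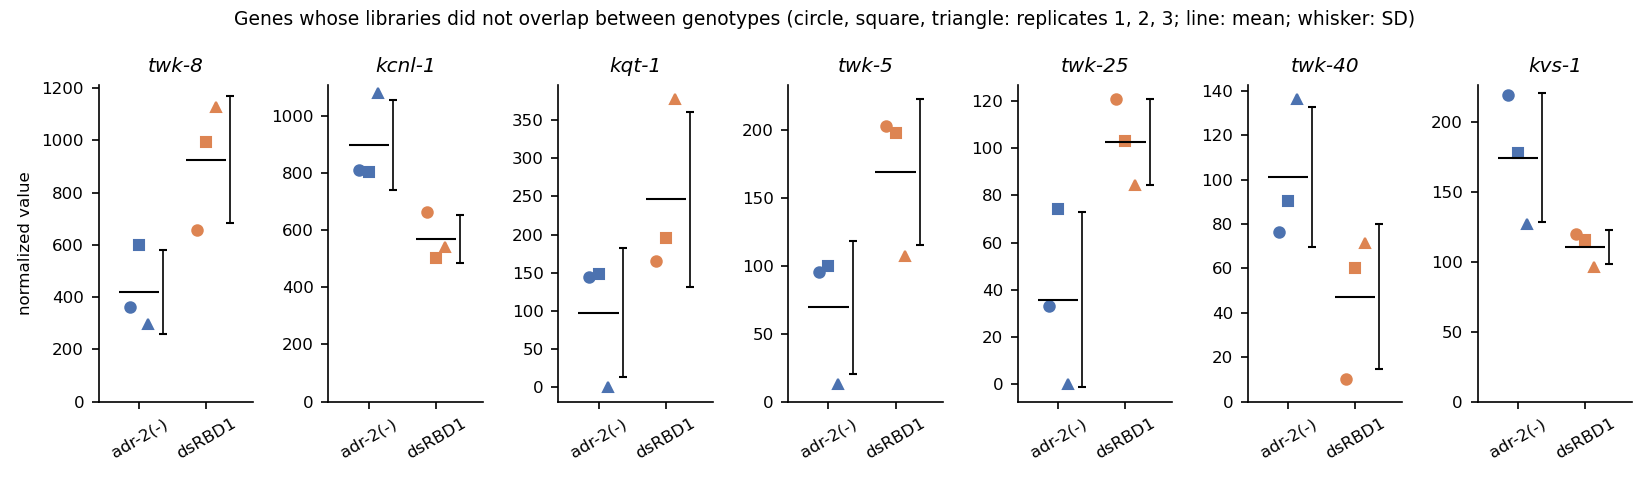
Normalized values by library for the 7 potassium channel genes whose libraries did not overlap between *adr-2 (-)* and dsRBD1 mutant neural cells. Circles, squares and triangles are replicates 1, 2 and 3, lines are means and whiskers SDs of 3 libraries. *twk-8* at 419 against 926 and *kcnl-1* at 898 against 569 are separated without a library at 0, whereas *kqt-1* and *twk-25* have *adr-2 (-)* replicate 3 at 0.

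Apart from *twk-8*, the most abundant K2P genes overlapped between genotypes. For *twk-18*, a leak channel of body wall muscle, values were 1477, 1959.6 and 1464 in *adr-2 (-)* cells and 2181, 1976 and 1725.5 in mutant cells. The ranges overlapped, and the log2 fold change was 0.27 with a 95% interval from -0.22 to 0.76 (limma, unadjusted p = 0.249), while the muscle markers had a median log2 fold change of 0.17. Without *adr-2 (-)* replicate 3 these were 0.20 and 0.08. The next most abundant K2P gene, *twk-49*, had values of 671, 826 and 501 against 1083, 829 and 792, a log2 fold change of 0.45 (limma, unadjusted p = 0.141) that was 0.26 without the same library. Its exons overlap those of *T28D9.1* on the other strand by 608 bp, and with the strand setting of the count not stated their reads may not be fully separated. For *twk-7*, a leak channel whose loss makes worms move more, values were 617, 567 and 1178 against 792, 636 and 638. The high value of *adr-2 (-)* replicate 3 set the direction: the log2 fold change was -0.12 with that library and 0.21 without it.

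Other K2P genes were separated by library at lower levels. *twk-5* had values of 95.5, 99.8 and 13.01 in *adr-2 (-)* cells and 203, 198 and 107 in mutant cells, a log2 fold change of 1.67 (limma, unadjusted p = 0.116) that was 0.73 without *adr-2 (-)* replicate 3, where the value of 13.01 rested on 4 reads. *twk-25* had values of 33.3, 74.1 and 0 against 121, 102.9 and 84.4, and its log2 fold change of 2.90 (unadjusted p = 0.121) was 1.02 without that library. *twk-40*, a leak channel of the locomotor circuit, was lower, with values of 76.6, 90.3 and 137 against 10.2, 60.2 and 71.6. Its log2 fold change was -1.43 (limma, unadjusted p = 0.243), and -0.57 without mutant replicate 1.

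Summed over the 45 K2P genes, the values were 9229, 10627 and 10337 in *adr-2 (-)* cells and 11997, 11145 and 11302 in mutant cells, a ratio of 1.14. All mutant sums were higher, but as reads per 1000000 reads, with those of *rrn-3.1* left out, the sums were 1041, 1131 and 1178 against 1247, 1172 and 1119, and the genotypes overlapped. Of the 44 K2P genes tested, 24 had a log2 fold change above 0 and 20 below, where 54.5% of all genes were above 0. The median was 0.19 against 0.09 for all genes, and 0.05 against -0.06 without *adr-2 (-)* replicate 3.

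Kv genes encode channels of the Shaker, Shal, Shab, Shaw and KVS types, which repolarize neurons and muscle after depolarization. The 3 most abundant of them differed little. The Shaker gene *shk-1* had values of 617, 464 and 517 in *adr-2 (-)* cells and 664, 429 and 499.5 in mutant cells, and its log2 fold change of -0.02 had a 95% interval from -0.70 to 0.66. *kvs-5* had values of 272, 438 and 546 against 283, 501 and 472, a log2 fold change of 0.01. For *exp-2*, which repolarizes pharyngeal muscle, they were 476, 584 and 823 against 456, 447 and 628, a log2 fold change of -0.28 (limma, unadjusted p = 0.403). Without *adr-2 (-)* replicate 3 the log2 fold changes were -0.04 for *shk-1*, 0.23 for *kvs-5* and -0.06 for *exp-2*. The ranges overlapped for all 3 genes.

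*kvs-1*, a channel of sensory neurons, was the 1 Kv gene with separated libraries. Values were 219, 178 and 127 in *adr-2 (-)* cells and 119.9, 116 and 96.6 in mutant cells, a log2 fold change of -0.62 (limma, unadjusted p = 0.340), and -0.83 without *adr-2 (-)* replicate 3. Over the whole class, 7 of the 10 Kv genes had a log2 fold change below 0, where 54.5% of all genes were above 0. The median was -0.14 against 0.09 for all genes, and -0.26 against -0.06 without *adr-2 (-)* replicate 3. The summed value was lower in every mutant library, at 3209.7, 3019 and 2992 in *adr-2 (-)* cells and 2741, 2441 and 2853 in mutant cells, a ratio of 0.871. As reads per 1000000 reads, *rrn-3.1* left out, the sums were 362, 321 and 341 against 285, 257 and 283, so the genotypes were separated on both scales. Both scales rest on the same reads. On the first scale, 6.92% of all genes tested were lower in every mutant library, and 13.7% were separated in either direction. Those shares are for single genes and need not hold for sums. These sums were not tested.

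KCNQ channels give slow, non-inactivating currents. *kqt-1* had values of 144, 148 and 0 in *adr-2 (-)* cells and 165, 196 and 378 in mutant cells. The groups did not overlap, but the log2 fold change of 3.05 (limma, unadjusted p = 0.0911) was 0.65 without *adr-2 (-)* replicate 3, and 404 bp of its exons overlap genes on the other strand, 371 bp of them a single gene. *kqt-2* had values of 142, 165 and 166 against 202, 136 and 161, and *kqt-3* of 169, 263 and 71.6 against 465, 130.0 and 103.8. Both overlapped between genotypes, with log2 fold changes of 0.06 and 0.32, which were 0.10 and -0.19 without *adr-2 (-)* replicate 3.

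The EAG/ERG class consists of the EAG gene *egl-2* and the ERG gene *unc-103*, gain of function in either of which impairs egg laying. *unc-103* had values of 971, 1393 and 1073 in *adr-2 (-)* cells and 1450.3, 1251 and 1264 in mutant cells, a log2 fold change of 0.22 (95% interval from -0.30 to 0.74). *egl-2* was the more variable, at 661, 433 and 234 against 271, 319.6 and 559, with a log2 fold change of -0.16 that was -0.55 without *adr-2 (-)* replicate 3. Neither gene was separated.

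The calcium-activated channels apart from *kcnl-1* showed no separation. The SK gene *kcnl-2* had values of 579, 583 and 539.9 in *adr-2 (-)* cells and 676, 419 and 529 in mutant cells, a log2 fold change of -0.09. *kcnl-4* had values of 93.7, 134 and 0 against 254, 119.8 and 203, and its log2 fold change was 2.98 with all libraries and 0.71 without *adr-2 (-)* replicate 3. *slo-1*, the BK channel that limits transmitter release, had values of 761, 936 and 306 against 1342, 692 and 1152, a log2 fold change of 0.76 (limma, unadjusted p = 0.0892) that was 0.28 without the same library. *slo-2*, a second high-conductance channel, had values of 559, 641 and 459 against 484, 583 and 721, and its log2 fold change of 0.10 had a 95% interval from -0.56 to 0.76 and was -0.03 without it. In each of these 4 genes the mutant values fell on both sides of at least 1 *adr-2 (-)* value.

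For the inward rectifiers, *irk-3* was the most abundant, with values of 241, 266.4 and 342 in *adr-2 (-)* cells and 390.5, 195 and 278 in mutant cells and a log2 fold change of -0.02, or 0.13 without *adr-2 (-)* replicate 3. *irk-1*, a channel of the egg-laying command neurons, had values of 22.5, 117 and 0 against 123, 212 and 90.9. Its log2 fold change of 3.25 (limma, unadjusted p = 0.0839) was the highest of the 70 genes, and it was 1.35 without *adr-2 (-)* replicate 3. *irk-2* had values of 91.9, 34.5 and 0 against 51.1, 14.4 and 57.3, and its log2 fold change turned from 1.28 to -0.67 without that library. Summed over the 3 genes, the values were 355, 418 and 342 in *adr-2 (-)* cells and 564, 421 and 427 in mutant cells. The sums were separated, but as reads per 1000000 with *rrn-3.1* left out they were 40.1, 44.5 and 38.9 against 58.6, 44.3 and 42.2 and overlapped.

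The accessory proteins UNC-93 and SUP-10 form a complex with the K2P channel SUP-9 in muscle. *unc-93* had values of 160.4, 273 and 153 in *adr-2 (-)* cells and 140.4, 162 and 151 in mutant cells, a log2 fold change of -0.32, or -0.47 without *adr-2 (-)* replicate 3. *sup-10* had values of 25.2, 35.96 and 0 against 27.9, 96.9 and 43.7, and its log2 fold change was 2.34 with all libraries and 0.69 without *adr-2 (-)* replicate 3. For the channel gene *sup-9* itself the means were 92.98 ± 27.7 and 79.6 ± 30.5 (SD, n = 3), a log2 fold change of -0.26, or -0.04 without that library. The 3 genes of the complex thus had different signs, and all overlapped between genotypes.

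**Figure D3:**
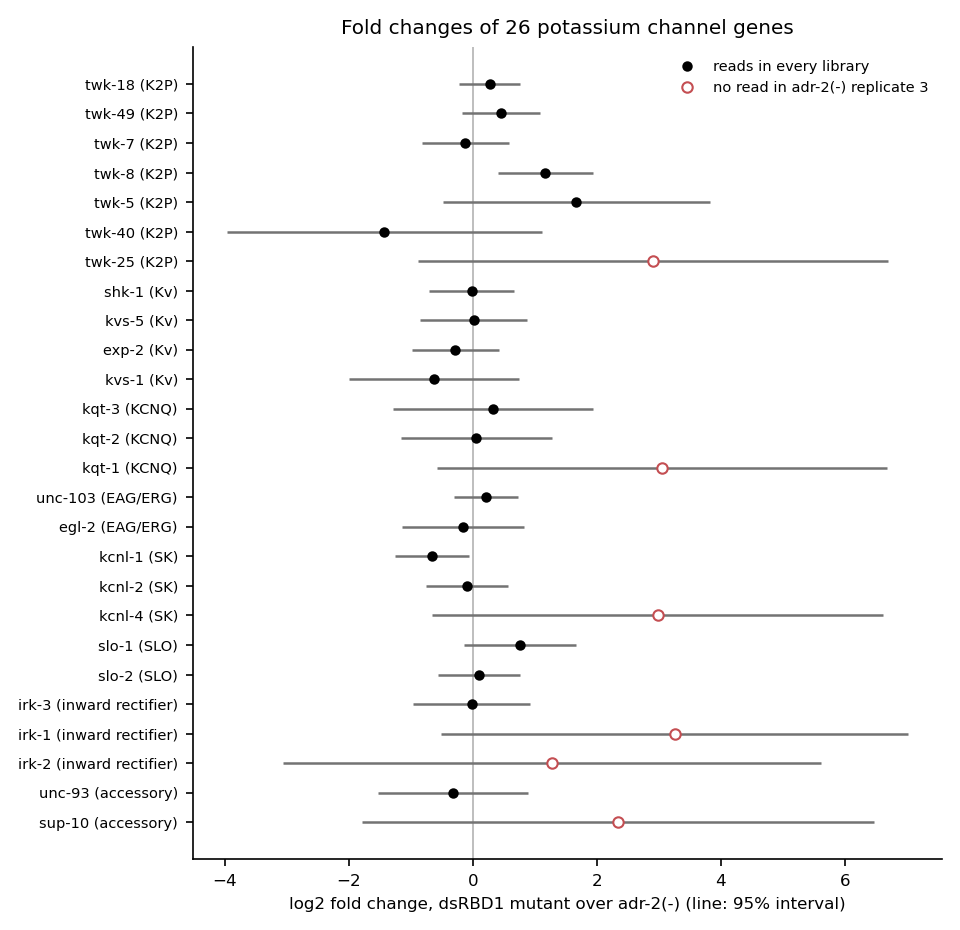
Log2 fold change of dsRBD1 mutant over *adr-2 (-)* neural cells for the 26 potassium channel genes described by library, with 95% intervals from limma, grouped by class. Filled points have reads in every library and open points have none in *adr-2 (-)* replicate 3. Only the intervals of *twk-8* (0.41 to 1.93) and *kcnl-1* (-1.25 to -0.06) leave out 0.

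**Figure D4:**
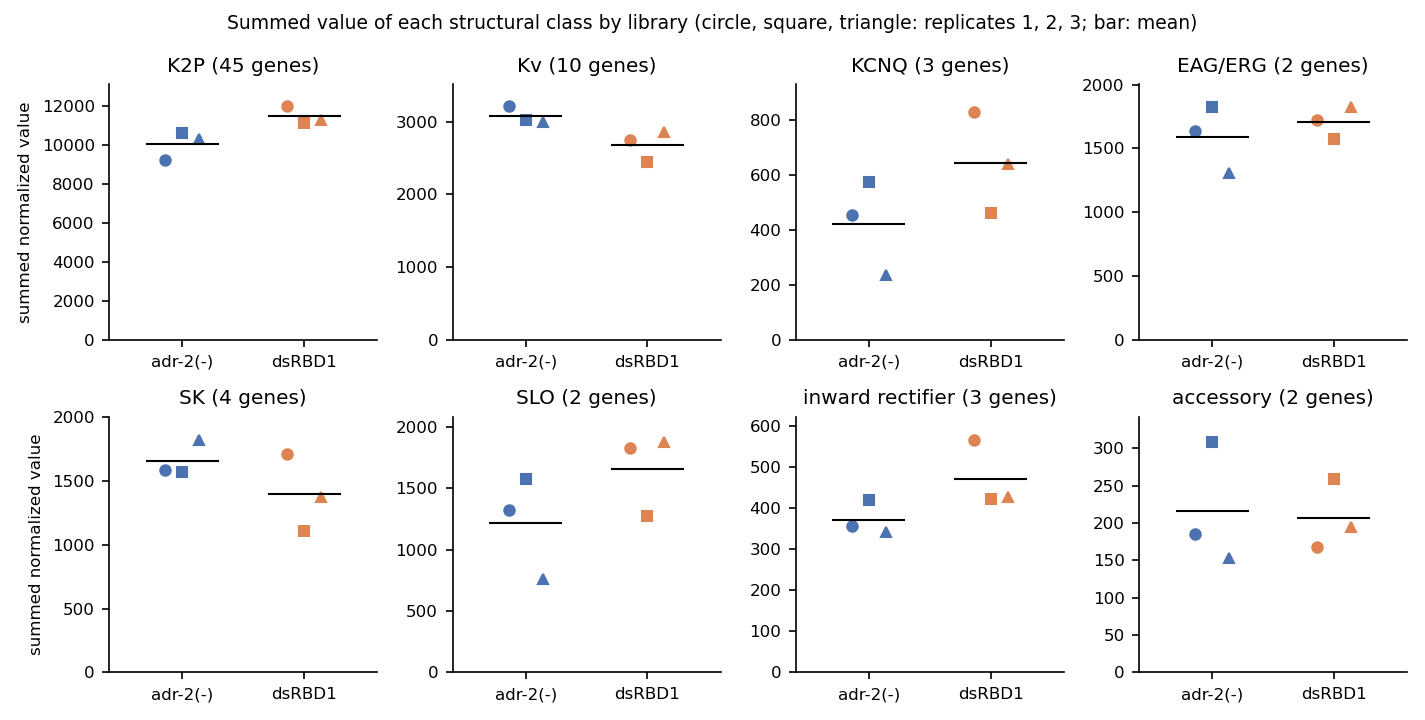
Summed normalized value of each structural class by library. Circles, squares and triangles are replicates 1, 2 and 3 and bars are means of 3 libraries. The Kv sums are lower in every mutant library (2441 to 2853 against 2992 to 3209.7) and the K2P sums higher (11145 to 11997 against 9229 to 10627). The inward rectifier sums are separated by a narrow gap (421 to 564 against 342 to 418), whereas the other 5 classes overlap.

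With all 6 libraries, the large fold changes among the potassium channel genes went with 1 library, though some of those below -2 also rested on a mutant library. *adr-2 (-)* replicate 3 had no read for 17 of the 70 genes tested, 24.3% against 25.2% of all genes, and for the untested *twk-21*. Of these, 13 had reads in all 5 other libraries, 18.6% of the 70 against 13.3% of all genes. The log2 fold changes of these 13 ran from 1.05 to 3.25 with a median of 2.36, and without the library from -0.67 to 1.35 with a median of 0.23, when 7 of the 13 were above 0. The library held the highest of the 6 values for 19 genes (27.1%, against 27.2% of all genes) and the lowest for 28 (40%, against 32.5%). All 9 genes with a log2 fold change above 2 were at 0 in *adr-2 (-)* replicate 3. All 4 genes below -2 (*twk-3*, *twk-6*, *twk-16* and *twk-23*) had their highest value in it. The extreme case was *twk-6*, with 41 reads and a value of 133 in that library, values of 0 and 0.73 in the other *adr-2 (-)* libraries and 0 in all mutant libraries. Its fitted fold change depends on the pseudocount and is no bound. Against the floor of 3 reads per library, the mean over 3 libraries was at least 19.9-fold lower in mutant cells. All but a trace of the *adr-2 (-)* mean came from 1 library. Without that library the *adr-2 (-)* mean was 0.37, under the mean mutant floor of 2.25, and the bound does not hold. With *twk-6* at this bound the median over the 70 genes was still 0.04.

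**Figure D5:**
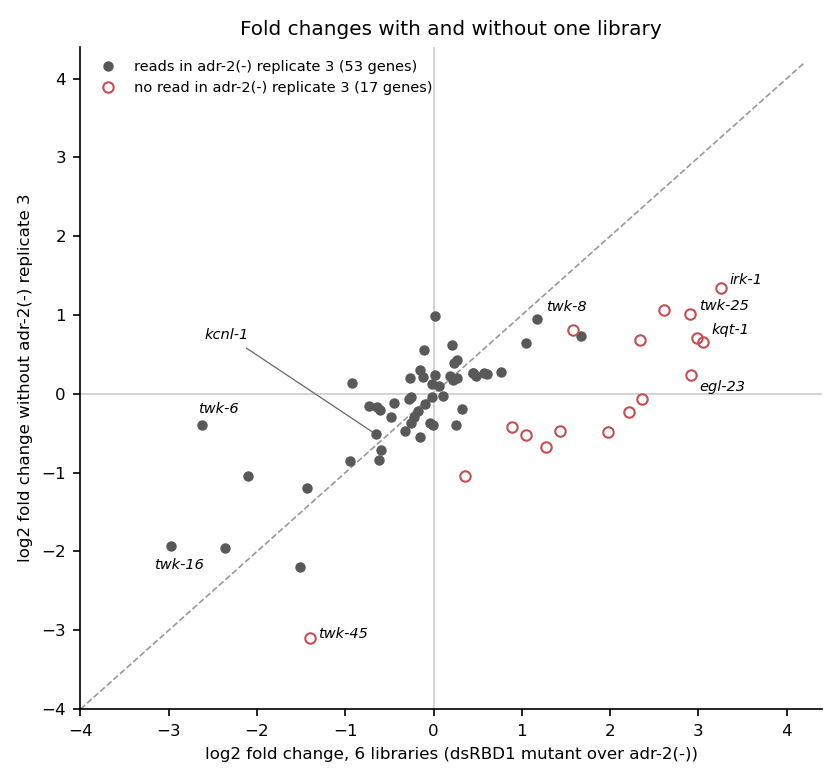
Log2 fold change of 70 potassium channel genes with all 6 libraries (horizontal axis) and without *adr-2 (-)* replicate 3 (vertical axis), with the dashed line marking equal values. Open points are the 17 genes with no read in that library. All genes above 2 on the horizontal axis are open points, and *twk-8* lies near the line at 1.17 and 0.95.

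Genes with enough reads were more even. The 45 genes with at least 10 reads in every library (64.3% of the 70, against 58.6% of all genes) had log2 fold changes from -1.43 to 1.17 with a median of -0.02, against 0.03 for the 8035 genes tested that met the same minimum, and 32 of the 45 were within 0.5 of 0. By level, the 29 genes with a mean value of 200 or more had a median absolute log2 fold change of 0.23 and the 41 below it one of 1.05. The log2 fold changes ran from -0.65 to 2.91 in the 29 genes and from -2.97 to 3.25 in the 41. The 2.91 was that of *egl-23*, which had no read in *adr-2 (-)* replicate 3 and was at 0.23 without that library. The spread between replicates was wide: the median SD of the log2 values was 0.82 over *adr-2 (-)* libraries and 0.49 over mutant libraries for the 70 genes, and 0.88 and 0.56 for all genes.

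In the genome, 21 of the 71 genes lie on chromosome X and 21 on chromosome V, 29.6% on each, against 14.8% and 23.01% of the measured genes with a position. Only *twk-21* and *twk-22*, separated by 2272 bp on chromosome X, are neighbours within 10000 bp. Both were low, at 4.13 and 16.2 per kb. Exons of 37 genes overlap exons on the other strand, by more than 100 bp in all in 15 of them and with a single gene in 13, and *twk-4* shares 2375 bp with *sym-2* on its own strand. The values of *twk-4*, between 0 and 48.7, are therefore uncertain.

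Proteins that act with these channels showed no common direction. Of 12 partners and regulators found, all of them tested, 6 had a log2 fold change above 0 and 6 below, with a median of 0.04, or 0.01 without *adr-2 (-)* replicate 3. The dystrophin gene *dys-1*, whose complex holds SLO-1 in place in muscle, had values of 3457, 4965 and 2768 in *adr-2 (-)* cells and 5455, 5039 and 8041 in mutant cells. Its log2 fold change was 0.74 (limma, unadjusted p = 0.0167, adjusted p = 0.724), and no other of the 12 had an unadjusted p-value under 0.05 or separated libraries. Without *adr-2 (-)* replicate 3 it was 0.55, with an unadjusted limma p-value of 0.118. Of all genes, 6.8% were higher in every mutant library, and 3.46% were higher at an unadjusted limma p-value under 0.05.

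Of 12 genes for potassium pumps and cotransporters, 9 were tested. A log2 fold change above 0 was found for 7 of the 9, where 54.5% of all genes had one. The median was 0.24 against 0.09 for all genes, and 0.03 against -0.06 without *adr-2 (-)* replicate 3. The potassium-chloride cotransporter gene *kcc-1* (WBGene00006504) had values of 1398, 1549 and 1219.7 in *adr-2 (-)* cells and 2698, 2631 and 2553 in mutant cells. The replicates of each genotype were close and the groups far apart, with means of 1389 ± 165 and 2627 ± 72.6 (SD, n = 3) and a log2 fold change of 0.93 (95% interval from 0.47 to 1.38). The adjusted p-value was 0.479 with limma, 0.380 with edgeR and 0.00538 with DESeq2 (0.0205 without *adr-2 (-)* replicate 3), so that it was called changed by DESeq2 and by neither of the others. The sodium pump subunit gene *eat-6* also had separated libraries, at 16962, 20134 and 16228 against 24849, 21625 and 22994, with a log2 fold change of 0.39 (limma, unadjusted p = 0.136). These were 2 of the 9 genes tested, where 6.8% of all genes were higher in every mutant library. DESeq2 called 1 gene of the list, where it called 2.2% of all genes.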

How the data were processed

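Neural-cell RNA was sequenced by the authors from stranded poly(A) libraries, reads were aligned to the WS275 genome with STAR 2.7.8a keeping unique alignments, counted per gene with featureCounts, and divided by DESeq2 size factors. The strand setting of the count for these libraries is not given in the sources used here. The deposited signal is this normalized value for 19793 genes. Dividing by the value of 1 read gave whole numbers for 100% of entries in each library (within 0.01 reads), and these recovered reads served the count tests. The table also holds the log2 fold changes, p-values and adjusted p-values of the authors' own comparison, which were not used.

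Log2(value + 1) was tested with limma 3.58.1 in R 4.3.3 with a mean-variance trend, after removing genes whose mean was below 10, which left 13705, and the Benjamini-Hochberg method was applied over these. A call needed an adjusted p-value under 0.05 together with a log2 fold change beyond 0.5 in either direction. The recovered reads went into DESeq2 1.42.0 (Wald test) and edgeR 4.0.16 (quasi-likelihood test). The default limma, edgeR and DESeq2 tests were also run on simulated data with 200 changed genes, and their recovery is not reported here. Alternatives were a pseudocount of 0.5, no filter, at least 10 reads in every library, TMM and library total scaling, no fold threshold, the replicate number as a block, and each library left out. edgeR and DESeq2 without *adr-2 (-)* replicate 3 were chosen after seeing the data.

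Members, classes and lists were chosen with earlier results of these data known. Values by library are given for genes with an unadjusted p-value under 0.05 or libraries that did not overlap, for the 3 most abundant per kb in each class, and for such genes of the lists of partners and transporters. The values of *sup-9*, *twk-4*, *twk-6*, *twk-21* and *twk-22* were chosen after their values were seen. Of the gene lists, *mps-3*, *mps-4*, 1 epidermis and 1 glia marker were not matched. The 11 epidermis markers found summed to 6066 to 8969 in *adr-2 (-)* and 5914 to 15910 in dsRBD1 mutant cells. Exon lengths and positions are from the Ensembl WBcel235 annotation, the assembly of WS275. A table of gene names held 18729 of the 19793 identifiers. No value of *adr-1* is reported here.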

Additional observations from a re-analysis of the deposited data

How the results depend on the processing

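The number of potassium channel genes called changed was 0 with limma under every alternative run. This says little about these genes, since limma called 0% of all genes with all libraries and without *adr-2 (-)* replicate 3. The share of all genes called under its other alternatives is not given here. The number called was also 0 with edgeR (2 at an unadjusted p-value under 0.05) and DESeq2 (3), which called 0% and 2.2% of all genes. With limma the number at an unadjusted p-value under 0.05 was 2 (6.36% of all genes passed). It was 1 with limma and no filter on low values (4.59%) or library total scaling (3.95%). It was also 1 with edgeR and a replicate block (4.4%), and without *adr-2 (-)* replicate 3 in edgeR (5.33%) or DESeq2 (6.26%). The 6.26% was not restricted to genes with an adjusted p-value. Counted in that way, DESeq2 with all libraries gave 7.85%. Leaving out each library in limma gave 1 to 8, where 3.95% to 11% of all genes passed. The 8 came without *adr-2 (-)* replicate 2, when 11% of all genes passed. The number without overlap was 7, and it was 4 when 10 reads were required in each library (8.89% of those tested against 14.8% of all genes) and 4 with library total scaling (5.71% against 11.2%); leaving out each library gave 12 to 17 (17.1% to 24.3%), where 20.2% to 29.6% of all genes did not overlap. Medians over the genes ran from -0.05 to 0.18, the highest with library total scaling, where the median of all genes was 0.21 instead of 0.09. The floor set by depth bears most on genes of low level, since in *adr-2 (-)* replicate 3 a value under 9.76 stood for fewer than 3 reads. Genes well above that floor were also at 0 there, such as *egl-23* (238 to 498 in the other libraries) and *kqt-1* (144 to 378). The cause was not tested.

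No pairing of the libraries by replicate number was seen: deviations of same-numbered libraries correlated at -0.09, 0.04 and -0.06. These values cannot show whether such libraries were prepared together. With limma and a replicate block, 3 genes (*egl-23*, *kqt-1* and *twk-8*, all higher) had an unadjusted p-value under 0.05, where 6.98% of all genes did.

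Of 29 genes described by library, 19 kept their direction under all alternatives run. Log2 fold changes of the others turned sign, and the cause was not tested. With library total scaling they were 0.016 for *twk-7*, 0.12 for *shk-1*, 0.041 for *kcnl-2* and 0.12 for *irk-3*. With TMM they were 0.0037 for *shk-1* and 0.0081 for *irk-3*. edgeR gave 0.0085 for *shk-1*, 0.044 for *irk-3* and -0.060 for *irk-2*, and with a block 0.00061 for *shk-1* and 0.0033 for *irk-3*. DESeq2 gave 0.030 for *irk-3* and -0.059 for *irk-2*. Without *adr-2 (-)* replicate 3, edgeR gave 0.20 for *twk-7*, -0.020 for *slo-2*, 0.16 for *irk-3* and -0.64 for *irk-2*, and DESeq2 0.22, -0.0088, 0.18 and -0.62. Leaving out each library gave -0.55 to 0.19 for *egl-2*, -0.31 to 0.21 for *twk-7*, -0.34 to 0.74 for *kqt-3*, -0.088 to 0.19 for *kqt-2*, -0.19 to 0.12 for *shk-1*, -0.27 to 0.27 for *kvs-5*, -0.27 to 0.077 for *kcnl-2*, -0.044 to 0.24 for *slo-2*, -0.26 to 0.24 for *irk-3* and -0.67 to 2.60 for *irk-2*.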
